A study of Rattus norvegicus with 82 samples.

Results

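The genes described here are the oxidant producing NADPH oxidase Nox4 and 9 genes that remove oxidants or answer to them: Sod1, Sod2, Cat, Gpx1, Gpx3, Prdx3, Hmox1, Nqo1 and Txnip. They were chosen by symbol from the deposited count table, where all 10 members were found among 17337 genes and all 10 were among the 11954 genes with enough counts to be tested. The study sequenced RNA of cardiomyocytes from 41 rats, taken apart by ventricle, right (RV) or left (LV), which gave 82 libraries in 12 groups. The rats were F1 animals from Wistar Kyoto mothers and Lewis fathers, with no transgene or deletion, and had either a sham operation (Sham), a pulmonary artery banding (PAB), which loads the RV, or an ascending aortic banding (AOB), which loads the LV. The hypertrophy stage (H) was labelled 11 weeks of age after 7 weeks of treatment in Sham-H (7 rats, 3 male), PAB-H (6 rats, 4 male) and AOB-H (6 rats, 2 male). The failure stage (F) was labelled 31 weeks of age after 26 weeks of treatment in Sham-F (9 rats, 4 male) and AOB-F (7 rats, 4 male), and 28 weeks of age after 22 weeks in PAB-F (6 rats, 4 male). These ages are as labelled, and the age at surgery that they imply differs from the one in the study's methods. PAB-F and Sham-F therefore differed in age as well as in banding, and these cannot be told apart. Each ventricle gave 1 library per animal, so the rats are the replicates. Cardiomyocytes were isolated by collagenase digestion of the perfused heart, filtration and centrifugation, a method that enriches cardiomyocytes without sorting them.

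NADPH oxidases pass electrons from NADPH to oxygen. Nox4 is the member of the family that is active without cytosolic activators and that releases mainly hydrogen peroxide, and in the heart it is known for its induction by load and in fibroblasts by TGF-beta. Superoxide dismutases turn superoxide into hydrogen peroxide, with Sod1 in the cytosol and Sod2 in the mitochondrial matrix, and catalase (Cat), the glutathione peroxidases and the peroxiredoxins then reduce the peroxide. The transcription factor NRF2 (gene Nfe2l2) drives Hmox1 and Nqo1 when cells meet oxidants or electrophiles, and Txnip, a thioredoxin-binding arrestin, holds thioredoxin back and is induced by glucose.

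Promoter sequences from RefSeq (assembly GRCr8, 250 bases before to 50 bases after the start) were at hand for 8 of the 10 members, all but Hmox1 and Txnip. The promoters of Nox4 and Gpx3 are shown because these were the 2 members that rose together in the banded RV. Capitals mark GC boxes (GGGCGG), the letters that SP1 family factors bind. The Nox4 promoter lies on the plus strand at chr1:150313639-150313938 and the Gpx3 promoter on the plus strand at chr10:39529085-39529384.
Nox4: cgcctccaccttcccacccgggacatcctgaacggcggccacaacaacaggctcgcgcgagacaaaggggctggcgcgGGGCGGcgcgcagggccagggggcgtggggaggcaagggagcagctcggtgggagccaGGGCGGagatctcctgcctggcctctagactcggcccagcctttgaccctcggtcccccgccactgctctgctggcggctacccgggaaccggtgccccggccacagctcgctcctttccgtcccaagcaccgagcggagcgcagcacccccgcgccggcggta
Gpx3: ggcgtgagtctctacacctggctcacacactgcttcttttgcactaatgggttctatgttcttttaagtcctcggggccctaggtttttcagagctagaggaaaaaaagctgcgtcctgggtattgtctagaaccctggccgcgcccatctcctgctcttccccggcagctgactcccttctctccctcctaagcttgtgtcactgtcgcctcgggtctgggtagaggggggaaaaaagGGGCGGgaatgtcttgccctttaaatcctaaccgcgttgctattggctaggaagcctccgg

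Nox4 held GC boxes at positions -172 and -114 from the start and Gpx3 held 1 at -11. Searched on both strands, the GC box was in 7 of the 8 promoters, all but that of Cat, and in 33.1% of 33469 rat promoters of the same length. The core of the antioxidant response element bound by NRF2 (TGACNNNGC) was in the Sod2 promoter alone of the 8, against 12.1% of all promoters. The E-box CACGTG was in the Gpx1 promoter alone (6.42% of all), and TATAAA was in those of Sod1 and Nqo1 (14.2% of all). Neither the AP-1 site TGANTCA (7.33% of all) nor the SMAD site CAGACA (21.1% of all) was found in any of the 8. These windows are short, and a missing match says only that the letters are not in them.

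The libraries held 6675287 to 19665439 counts (median 13074485.5), and none of them was a copy of another. Every library expressed the 9 ventricular cardiomyocyte markers, whose summed level was 60700 to 143000 CPM (counts scaled to a common total). Markers of other cell types were also present, and 10 fibroblast markers summed to medians of 338 CPM in RV Sham-H, 510 in RV PAB-H, 232 in RV Sham-F and 499 in RV PAB-F. Several libraries stood apart from their group. LV AOB-H replicate 6 had the smallest total, 1430 CPM of fibroblast and 5010 CPM of endothelial markers, and a median correlation of 0.929 with its group where the next lowest was 0.983. LV Sham-H replicate 4 (0.932), LV PAB-H replicate 2 (0.933) and LV AOB-F replicate 7 (0.937) were the next lowest, while RV Sham libraries were at 0.981 or above. The LV libraries of the F stage also differed from the RV libraries of their stage over much of the transcriptome, which is given with the results that rest on them.

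Levels between genes were compared by the authors' FPKM, which divides by gene length and depth. Over all libraries the median level was 625 FPKM for Gpx1, 506 for Txnip, 361 for Sod2, 317 for Prdx3, 152 for Sod1 and 146 for Cat, so 6 of the members were abundant transcripts of these cells. Gpx3, which encodes the secreted glutathione peroxidase, had a median of 30.1 FPKM and ranged from 10.7 to 287, Nqo1 had 15.6 and Hmox1 13.8. Nox4 was the lowest at 1.82 FPKM (range 0.119 to 9.5), with 3 to 277 raw counts per library. Nox4 was thus measured on few reads. The spread among rats of a group, as edgeR's biological coefficient of variation, was 0.386 for Nox4, 0.508 for Gpx3 and 0.429 for Hmox1, against 0.167 to 0.238 for the other 7 members. In the following, values of 1 gene in different libraries are normalized counts, that is, counts divided by the library's TMM-scaled size and brought to a common library size of 13279120.

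Nox4 and Gpx3 also varied most between the 12 groups. The ratio of the highest to the lowest group median was 11.8 for Gpx3 and 6.79 for Nox4, and 1.31 (Nqo1) to 2.6 (Sod1) for the other 8 members. By its group medians, Nox4 was highest in LV AOB-H (146 normalized counts), followed by LV PAB-H (106), LV Sham-H (80.3), RV PAB-H (77.7), RV PAB-F (72), LV PAB-F (65.3), LV Sham-F (48.9) and LV AOB-F (43.4). It was lowest in RV Sham-H (41.3), RV AOB-H (40.5), RV Sham-F (21.7) and RV AOB-F (21.5). Of the 11 pairs of neighbours in that order, 10 overlapped and 1 did not, by a narrow gap (RV AOB-H from 35.4, RV Sham-F up to 33). For each of the other 9 members all 11 neighbouring pairs overlapped. Such overlaps were not counted over all tested genes, so these counts do not set Nox4 apart.

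**Figure D1:**
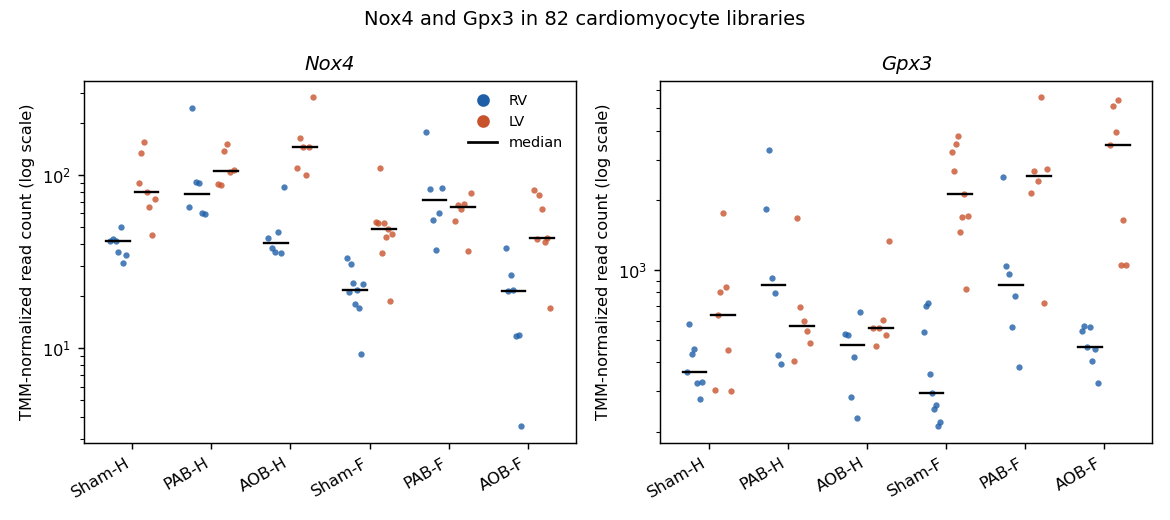
Normalized counts of Nox4 and Gpx3 (log axis) in each library, by condition, with RV libraries in blue, LV libraries in orange and a black bar at the group median. Nox4 of all 6 RV PAB-H libraries (59.3 to 245) lies above that of all 7 RV Sham-H libraries (31.2 to 49.8), and Gpx3 of Sham-F is 826 to 3810 in the LV and 210 to 723 in the RV.

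Pressure load on the RV went with higher Nox4 and Gpx3 at both stages. Against Sham, Nox4 was 2.57-fold higher in RV PAB-H and 3.72-fold higher in RV PAB-F, and Gpx3 was 3.24-fold and 2.63-fold higher. The dismutases, Cat, Gpx1, Prdx3, Hmox1, Nqo1 and Txnip did not pass the test in either comparison. Calls were made with edgeR's quasi-likelihood test at a Benjamini-Hochberg adjusted p below 0.05 over all tested genes. In bulk RNA, fewer cells of a type and less RNA per cell cannot be told apart.

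At the H stage Nox4 was 31.2, 41.3 and 49.8 normalized counts (lowest, median, highest of 7) in RV Sham-H and 59.3, 77.7 and 245 (of 6) in RV PAB-H. All 6 banded animals lay above all 7 Sham animals, and replicate 2 was far above the rest. The log2 fold change was 1.36 ± 0.33 (SE), with an adjusted p of 0.0112 (edgeR). Gpx3 was 277, 363 and 583 in RV Sham-H and 391, 862 and 3300 in RV PAB-H (means 395 ± 104 and 1280 ± 1120, SD). Here the groups overlapped, since 4 of the 6 banded animals, all male, were above all Sham animals. The others, replicates 5 and 6, were the females of the group. Their Gpx3 was 427 and 391, against 277 to 456 in the Sham-H females. Whether the change with banding differed by sex was not tested. The log2 fold change was 1.70 ± 0.42 (edgeR adjusted p = 0.0152). These 2 of 10 members compare with 4.5% of all tested genes called, and both were also called by a rule built after the study's criteria, which called 1.82% of genes. This rule, named the study's criteria below, asked for a 2-fold change, a mean above 50 (in the banded group, or in the highest group where none was banded or several were compared) and a p no higher than 0.01, taken here as unadjusted. The study used its criteria for banding against Sham, and here the rule was applied to every comparison.

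At the F stage Nox4 was 9.2, 21.7 and 33 in RV Sham-F (of 9) and 37.1, 72 and 177 in RV PAB-F (of 6), again with every banded animal above every Sham animal (log2 fold change 1.90 ± 0.32, edgeR adjusted p = 2.03e-05). Gpx3 was 210, 294 and 723 in RV Sham-F and 382, 863 and 2520 in RV PAB-F (means 394 ± 204 and 1040 ± 767, SD). Of the 6 banded animals 4 were above all Sham animals (log2 fold change 1.40 ± 0.39, edgeR adjusted p = 0.0131). The females of RV PAB-F (770 and 382) were above those of RV Sham-F (210 to 294). Across all tested genes 11.1% were called in this comparison, and 1.9% by the study's criteria, again with both members among them. Sod1 (-0.45 ± 0.18, edgeR adjusted p = 0.0906) and Txnip (-0.34 ± 0.13, edgeR adjusted p = 0.0643) did not pass. Txnip did pass with DESeq2 (-0.37, adjusted p = 0.033) and with RLE scaling. Both passed when fitted on the 2 groups alone, a fit that called 2726 of 11067 genes. The change of Nox4 did not differ detectably between the stages. The F minus H difference was 0.54 ± 0.46 for Nox4 and -0.30 ± 0.58 for Gpx3 on the log2 scale, and 0% of genes were called for that difference.

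**Figure D2:**
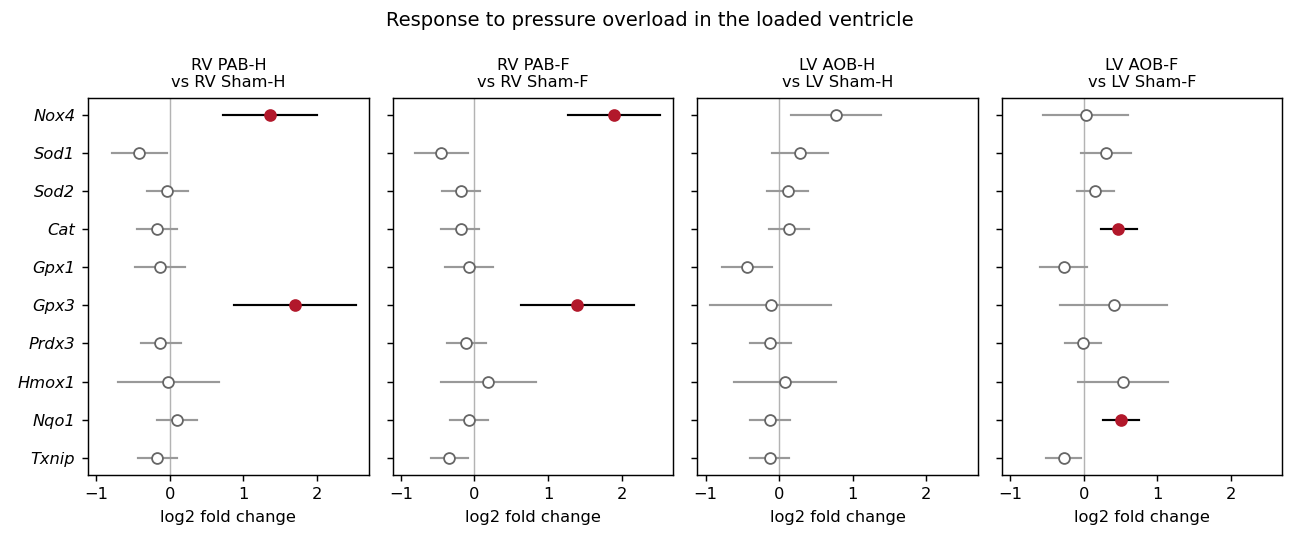
Log2 fold changes of the 10 members in the loaded ventricle against Sham (RV PAB-H, RV PAB-F, LV AOB-H, LV AOB-F) with 95% intervals, filled red where the adjusted p was below 0.05. Nox4 and Gpx3 are called in the 2 RV panels, no member in LV AOB-H, and Cat and Nqo1 in LV AOB-F.

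The rise of both genes moved with markers of fibroblasts, cells in which Nox4 and Gpx3 are also expressed. Of the 9 tested fibroblast markers, 9 rose in RV PAB-H (median log2 fold change 1.37, median of all genes 0) and 6 in RV PAB-F (1.43, all genes 0.02). The summed level of the list ranged over 231 to 441 CPM in RV Sham-H and 340 to 2890 CPM in RV PAB-H, and over 143 to 485 CPM in RV Sham-F and 261 to 1940 CPM in RV PAB-F. Of the defining markers, only the collagen gene Col1a2 was at 0 in all libraries of RV Sham-H, RV Sham-F and RV PAB-F, and none was in RV PAB-H. In RV PAB-H replicates 1 to 6 the sum was 1390, 2890, 506, 514, 380 and 340 CPM, Gpx3 was 1840, 3300, 927, 797, 427 and 391 normalized counts, and Nox4 was 65.8, 245, 90.7, 89.6, 60.6 and 59.3. Gpx3 thus largely followed the fibroblast sum from rat to rat, while Nox4 of replicate 1 was low at a high sum. In RV PAB-F replicates 1 to 6 the sum was 1940, 610, 755, 297, 388 and 261 CPM, Gpx3 was 2520, 1040, 956, 565, 770 and 382, and Nox4 was 177, 83.4, 54.8, 37.1, 60.6 and 84.5. In replicate 6 Nox4 was high at the lowest fibroblast sum. Of the endothelial markers 2 of 7 rose in RV PAB-H and 1 of 7 in RV PAB-F. Their median sum was 841 CPM in RV Sham-H, 1450 in RV PAB-H, 884 in RV Sham-F and 1320 in RV PAB-F. In RV PAB-H replicates 1 to 6 the endothelial sum was 1460, 2240, 1670, 1440, 992 and 882 CPM. In RV PAB-F replicates 1 to 6 it was 1990, 1230, 1180, 837, 1450 and 1400 CPM. Nox4 was highest at the highest and lowest at the lowest endothelial sum in both groups. In RV PAB-H the fibroblast sum had its extremes in the same animals, replicates 2 and 6. Between the extremes the order of Nox4 differed from that of the endothelial sum. In RV PAB-F it was 60.6 in replicate 5 (1450 CPM) and 83.4 in replicate 2 (1230 CPM). Macrophage markers rose in 0 and 3 of 8, mural markers in 1 and 2 of 7, Schwann cell markers in 1 and 1 of 5, and of the 9 ventricular cardiomyocyte markers 0 and 1 rose. Atrial cardiomyocyte markers rose in 2 of 4 at both stages (median log2 fold change 1.57 at H and 1.11 at F), with sums of 19 to 46.6 CPM in RV Sham-H, 149 to 413 in RV PAB-H, 21.8 to 66.6 in RV Sham-F and 75.8 to 8590 in RV PAB-F. The highest was PAB-F replicate 1, at 8590 CPM against a group median of 673, which also had the highest Nox4 and Gpx3 of its group.

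Single libraries carried much of the H-stage result. Without the PAB-H animal 2, Nox4 was 0.88 (edgeR adjusted p = 0.281) and Gpx3 1.15 (edgeR adjusted p = 0.265), and neither was called. Calls fell across all genes, from 538 of 11954 to 29 of 12009. Nox4 of the other PAB-H animals (59.3 to 90.7) still lay above that of every Sham-H animal (highest 49.8). Without the PAB-F animal 1, Nox4 kept its F-stage call (1.53, edgeR adjusted p = 0.00206), while Gpx3 was 0.91 (edgeR adjusted p = 0.222). Here calls over all genes fell from 1325 of 11954 to 337 of 11994. Leaving out the 2 RV libraries per PAB group with the highest fibroblast sum, an alternative chosen after seeing the data, gave 0.91 (edgeR adjusted p = 0.368) for Nox4 and 0.67 (edgeR adjusted p = 0.778) for Gpx3 in PAB-H. In PAB-F it gave 1.58 (edgeR adjusted p = 0.000826) for Nox4, still called, and 0.80 (edgeR adjusted p = 0.305) for Gpx3. Across all genes this fit called 41 of 12056 in PAB-H and 370 of 12056 in PAB-F. Animals 1 to 4 of both PAB groups were male. With sex as a covariate both calls stood in both stages, at 1.2 and 1.82 for Nox4 and 1.37 and 1.25 for Gpx3 (H and F, log2). The part of fibroblast RNA or of the other marker lists in these changes was not tested. Nox4 is one of the genes the study picked from these same libraries as changed by PAB, so its call here is not independent evidence.

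**Figure D3:**
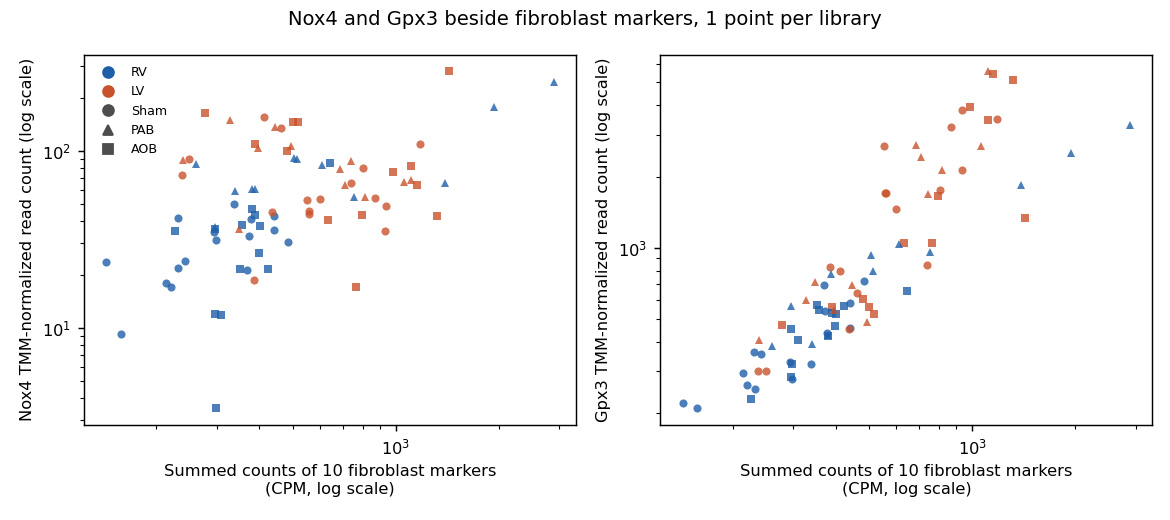
Normalized counts of Nox4 and Gpx3 against the summed CPM of 10 fibroblast markers, 1 point per library on log axes (RV blue, LV orange; circles Sham, triangles PAB, squares AOB). Gpx3 rises with the marker sum over most of its range, and Nox4 spreads widely at a given sum.

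For the other oxidant and antioxidant genes, the counts below stand beside 4.5% of all tested genes called in RV PAB-H and 11.1% in RV PAB-F. Among 9 tested NADPH oxidases and their subunits or partners, none was called in RV PAB-H (median log2 fold change 0.52, all genes 0) or in RV PAB-F (0.59, all genes 0.02). Among other oxidant producing enzymes, 2 of 7 rose in RV PAB-H, namely aldehyde oxidase Aox1 (1.45 ± 0.35) and xanthine dehydrogenase Xdh (1.15 ± 0.25). In RV PAB-F 4 of 7 rose, led by the neuronal nitric oxide synthase Nos1 (2.86 ± 0.42), monoamine oxidase Maoa (1.74 ± 0.37) and Aox1 (1.12 ± 0.33). The extracellular dismutase Sod3 rose in RV PAB-H (1.25 ± 0.38), 1 of the 2 other dismutase genes tested, and 0 of 2 were called in RV PAB-F. In the glutathione system 2 of 19 rose (Gpx8 1.45 ± 0.38, Gsta1 1.3 ± 0.4) and 1 fell (Gstk1, by 0.54 ± 0.14) in RV PAB-H, and 3 fell in RV PAB-F (Gstk1 -0.51 ± 0.14, Glrx2 -0.45 ± 0.13, Gclm -0.4 ± 0.12). Of the 14 genes of the peroxiredoxin and thioredoxin system, 1 rose in each, sulfiredoxin Srxn1 (0.56 ± 0.16) at H and Sesn3 (0.94 ± 0.15) at F. Of 19 further NRF2 pathway genes only Cbr1, a carbonyl reductase, was called, and it was lower at both stages (-1.19 ± 0.27 and -1.09 ± 0.26). All of these passed edgeR's test over all genes. None of the 8 genes of mitochondrial NADPH supply and uncoupling or of the 6 arrestin and glucose sensing genes was called in either comparison.

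In the LV of aortic banded rats no member was called at the H stage, where hardly any gene was. At the F stage Cat and Nqo1 were called higher, beside 12.9% of all genes called. In LV AOB-H 0 of 10 members were called by edgeR and 0 by DESeq2, with 2 at an unadjusted p below 0.05 and 0.0167% of all genes called. Nox4 was 45.1, 80.3 and 156 normalized counts in LV Sham-H and 100, 146 and 281 in LV AOB-H, so the groups overlapped. Its log2 fold change was 0.77 ± 0.31 (95% interval 0.16 to 1.39, edgeR adjusted p = 0.168). Gpx1 was the other member at an unadjusted p below 0.05 (-0.44 ± 0.18, edgeR adjusted p = 0.166), and LV AOB-H replicate 6 had the lowest Gpx1 of the group, at 3670.

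In LV AOB-F, catalase rose 1.39-fold. It was 2550, 2880 and 4510 in LV Sham-F and 3080, 4520 and 5290 in LV AOB-F (means 3180 ± 644 and 4410 ± 878, SD), with a log2 fold change of 0.47 ± 0.13 (edgeR adjusted p = 0.00809). The groups overlapped. Nqo1, the quinone reductase, rose 1.42-fold, from 294 ± 32.9 to 418 ± 174 (log2 fold change 0.51 ± 0.12, edgeR adjusted p = 0.00396). In the 7 AOB-F animals it was 279, 333, 287, 335, 369, 730 and 595, against 244 to 358 in Sham-F, so that replicates 6 and 7 stood above the rest. The same 2 animals had the highest Hmox1 of the group, 926 and 1030 against 237 to 588 in the others, and Hmox1 did not pass (0.54 ± 0.31, edgeR adjusted p = 0.248). These 2 libraries also had the lowest ventricular cardiomyocyte marker sums of the group, 60700 and 64600 CPM against 84400 to 106000 in the others. Their median correlations with the group were the lowest (0.951 and 0.937). Macrophage sums were 224 and 251 CPM in these 2 libraries and 46.2 to 233 in the others. The 233 was that of replicate 2, whose Nqo1 was 333. The part of these measures in the values was not tested. Without animal 6 Nqo1 was 0.32 (edgeR adjusted p = 0.0642) and only Cat was called, beside 932 of 11924 genes. With the spread estimated from the 2 groups alone neither was called (edgeR adjusted p = 0.12 for Cat and 0.159 for Nqo1). That fit called only 15 of 11296 genes. The 2 calls given first compare with 12.9% of all genes, and by the study's criteria 0 members and 1.21% of genes were called.

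Nox4 was not called in LV AOB-F (18.6, 48.9 and 109 in LV Sham-F, 17, 43.4 and 82 in LV AOB-F). The F minus H difference of its response to AOB in the LV was -0.74 on the log2 scale, with 0% of genes called for that difference. The list counts below stand beside 12.9% of all tested genes called in LV AOB-F (8.54% higher and 4.35% lower). Of the 9 other oxidase genes 3 rose in LV AOB-F, among them Cybb, the catalytic subunit of the phagocyte oxidase (1.42 ± 0.37), and Rac1 (0.3 ± 0.1). Macrophage markers moved with these, and 4 of 8 rose (summed level 39 to 150 CPM in LV Sham-F and 46.2 to 251 CPM in LV AOB-F). Their part in the result was not tested. Of the NRF2 pathway 2 of 19 genes rose, Nfe2l2 itself among them (0.43 ± 0.14). The thioredoxin reductase Txnrd1 (0.49 ± 0.12) and Srxn1 (0.45 ± 0.14) rose as well, 2 of 14. The NRF2 and thioredoxin counts were near the share over all genes. In the glutathione system 2 rose (Gsta1 1.03 ± 0.35, Mgst1 0.8 ± 0.28) and 2 fell, Gstk1 among them (-0.57 ± 0.13). Mthfd2, a mitochondrial folate enzyme that yields NADPH or NADH, rose by 1.68 ± 0.35, Nos1 by 1.31 ± 0.4, and the Txnip relative Arrdc2 fell by 0.7 ± 0.22.

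**Figure D4:**
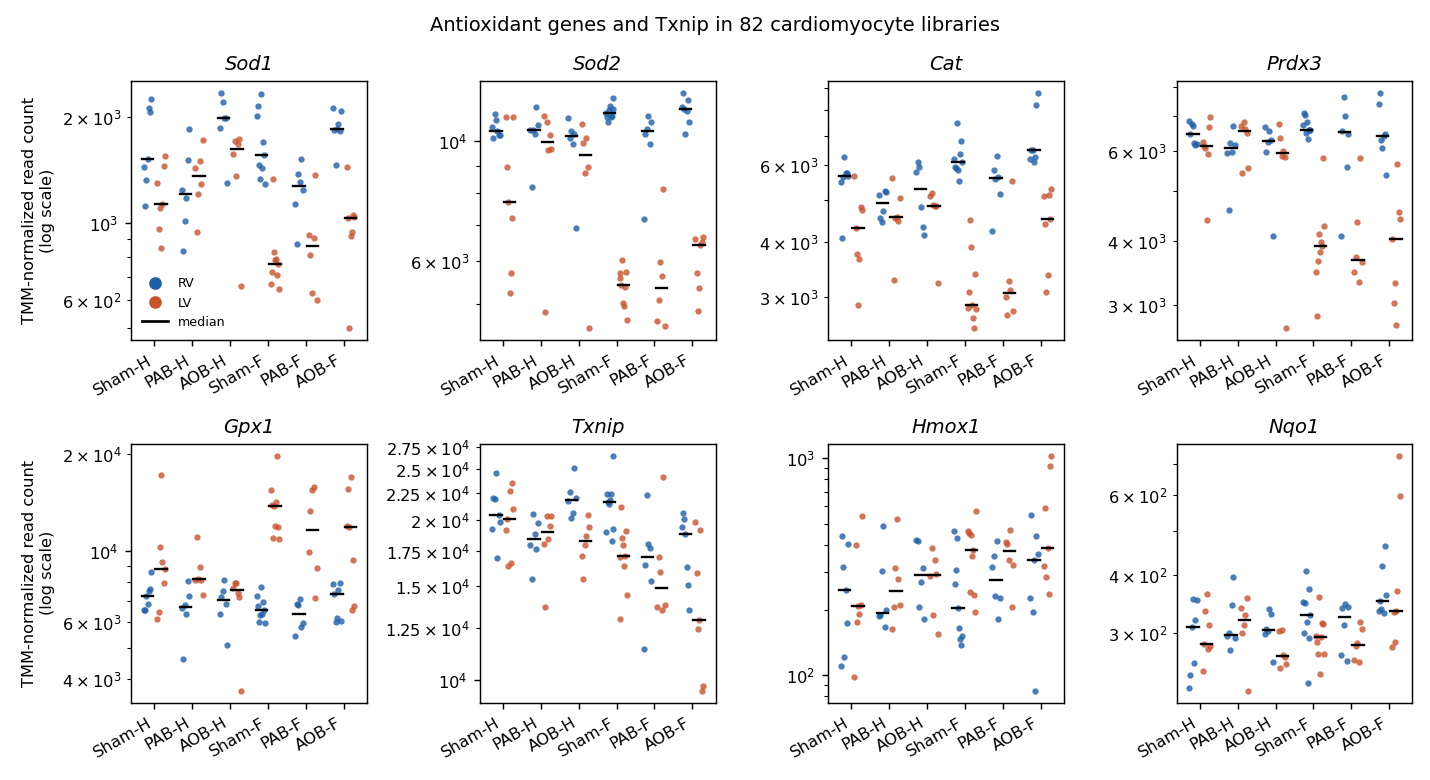
Normalized counts of the other 8 members (log axes) in each library by condition, RV in blue, LV in orange, with a black bar at the group median. Sod1, Sod2, Cat and Prdx3 are higher and Gpx1 lower in the RV than in the LV of Sham-F, and Nqo1 of 2 LV AOB-F libraries (730 and 595) stands above the rest.

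In the ventricle that was not loaded no member was called. By edgeR and by DESeq2 alike the count was 0 in LV PAB-H, RV AOB-H, LV PAB-F and RV AOB-F, and the members at an unadjusted p below 0.05 numbered 0, 0, 0 and 1. Across all genes 0%, 0%, 0% and 0.0669% were called. Nox4 was 87.2, 106 and 150 in LV PAB-H, where its log2 fold change was 0.29 and that of Gpx3 0.01. Whether the response to PAB differed between the ventricles was tested as the RV minus LV difference. For Nox4 this was 1.07 ± 0.45 at H (edgeR adjusted p = 0.452) and 1.63 ± 0.45 at F (edgeR adjusted p = 0.0891), and for Gpx3 1.69 ± 0.6 (edgeR adjusted p = 0.422) and 1.18 (edgeR adjusted p = 0.359). None passed, where 0% of genes were called at H and 0.351% at F, with 3 members at an unadjusted p below 0.05 at H. With the animal as a block, which pairs the 2 ventricles of each rat, the F-stage difference of Nox4 was 1.47 (edgeR adjusted p = 0.0103). It was called there beside 349 of 11954 genes. By the study's criteria Gpx3 was called at H (1.14% of genes) and Nox4 at F (1.07% of genes). The same test for AOB called 0% of genes at both stages.

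The 2 ventricles of Sham rats differed in most members at the F stage and in fewer at the H stage. The LV libraries of that stage set this scale. Between RV and LV of Sham-F 74.3% of all genes were called, and between LV Sham-F and LV Sham-H 57.4%, against 0.0502% between RV Sham-F and RV Sham-H. Other measures moved with it. Of 12 immediate early and heat shock genes, which cell isolation can raise, 10 were lower in RV than in LV of Sham-F and 8 were higher in LV Sham-F than in LV Sham-H. Fibroblast markers summed to a median of 601 CPM in LV Sham-F, 436 in LV Sham-H and 232 in RV Sham-F, and 5 of 9 were lower in the RV of Sham-F. Endothelial markers had medians of 2170 CPM in LV Sham-F, 1590 in LV Sham-H and 884 in RV Sham-F. The RV to LV difference in Sham-F also followed gene length, with a median of -0.22 for the shortest and 0.08 for the longest genes (3 equal classes), and with a length offset every member kept its side of the threshold. The part of these in the results was not tested.

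Among oxidant producers, Nox4 was lower in the RV than in the LV of Sham rats at both stages. In Sham-H it was 31.2, 41.3 and 49.8 in the RV and 45.1, 80.3 and 156 in the LV, a log2 difference of -1.21 ± 0.32 (edgeR adjusted p = 0.00572). In Sham-F it was 9.2, 21.7 and 33 in the RV and 18.6, 48.9 and 109 in the LV (-1.21 ± 0.3, edgeR adjusted p = 0.000228). The ranges overlapped at both stages. No change of this difference between the stages was detected. The RV minus LV difference of the stage effect was 0.00 for Nox4 (edgeR adjusted p = 0.995), which does not show that the sizes were equal. Of the other oxidase genes 0 of 9 were higher and 5 lower in the RV of Sham-F, led by Cyba, the p22phox subunit that Nox4 needs (-2.97 ± 0.31), Duox1 (-1.42 ± 0.33) and Rac2 (-1.37 ± 0.28). These counts stand beside 74.3% of all genes called, with 35.6% higher and 38.6% lower in the RV.

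The dismutases were higher in the RV. Sod2 was 10800, 11300 and 12000 normalized counts in RV Sham-F and 4670, 5430 and 6020 in LV Sham-F, with no overlap (1.07 ± 0.12, edgeR adjusted p = 1.78e-12). Sod1 was 1290, 1560 and 2320 in the RV and 647, 764 and 1330 in the LV of Sham-F, with 1 LV library (replicate 3) among the RV values (1.08 ± 0.16, edgeR adjusted p = 1.94e-08). Both differences were smaller and near the threshold in Sham-H (Sod1 0.51 ± 0.18, edgeR adjusted p = 0.0402, and Sod2 0.37 ± 0.13, edgeR adjusted p = 0.0381). The secreted Sod3 had the opposite direction in Sham-F (-2.32 ± 0.33), as did Ccs, the copper chaperone of Sod1 (-0.69 ± 0.12).

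The peroxide removing enzymes split by gene. Cat was 5520, 6120 and 7480 in the RV and 2550, 2880 and 4510 in the LV of Sham-F (0.97 ± 0.12, edgeR adjusted p = 2.85e-11), and the mitochondrial peroxiredoxin Prdx3 was 6330, 6590 and 7100 against 2860, 3920 and 5800 (0.75 ± 0.12, edgeR adjusted p = 6.74e-08). Both were higher in the RV without overlap. Gpx1, the glutathione peroxidase of cytosol and mitochondria, was lower in the RV without overlap, at 5950, 6560 and 7730 against 10900, 13800 and 19800 (-1.04 ± 0.15, edgeR adjusted p = 5.12e-09). Gpx3 showed the largest difference of the members, at 210, 294 and 723 in the RV and 826, 2130 and 3810 in the LV, 5.93-fold lower in the RV without overlap (-2.57 ± 0.37, edgeR adjusted p = 5.81e-09). In Sham-H only Cat of these was called (0.38 ± 0.13, edgeR adjusted p = 0.0363), and Gpx1 (-0.38 ± 0.17), Gpx3 (-0.88 ± 0.41) and Prdx3 (0.10 ± 0.13) were not. Txnip was higher in the RV of Sham-F (0.32 ± 0.11, edgeR adjusted p = 0.00941), at 18300, 21600 and 26500 against 13000, 17100 and 21200, but not without Sham-F animal 9 (0.24, edgeR adjusted p = 0.058). Hmox1 (-0.56 ± 0.3, edgeR adjusted p = 0.0855) and Nqo1 (0.16 ± 0.12) did not pass. Hmox1 did with the animal as a block (-0.61, edgeR adjusted p = 0.000748), a fit that called 9233 of 11954 genes.

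In all, 8 of 10 members were called in Sham-F (5 higher and 3 lower in the RV) beside 74.3% of all genes, so the share of members was near that of the background. By the study's criteria 5 members and 27.7% of genes were called. In Sham-H 4 of 10 were called beside 21% of genes, and 1 (Nox4) beside 2.83% by the study's criteria. Nox4 was the only one of these that stood when the spread came from the 2 groups alone (1499 of 10929 genes called). The same held without Sham-H animal 4 (571 of 11952 genes) or 5 (742 of 11948 genes). Without animal 3 (2133 of 11944 genes) or 6 (1647 of 11959 genes) 2 members were called. Of 14 peroxiredoxin and thioredoxin genes 5 were higher and 8 lower in the RV of Sham-F (Sesn2 -1.45 ± 0.18, Prdx4 -1.4 ± 0.2, Sesn1 0.98 ± 0.13). Of 19 glutathione genes 6 were higher and 8 lower (Gpx7 -2.22 ± 0.24, Gstp1 -1.91 ± 0.17, Gsta4 1.29 ± 0.18). Of 19 NRF2 pathway genes 4 were higher and 10 lower (Nqo2 1.53 ± 0.15, Ephx1 -1.5 ± 0.27, the ferritin light chain Ftl1 -1.36 ± 0.15). Nnt, the transhydrogenase that supplies mitochondrial NADPH, was higher (1.24 ± 0.15), 1 of 2 higher and 2 lower among 8 such genes, and the Txnip relatives Arrdc1 (-2.21 ± 0.26) and Arrdc3 (1.87 ± 0.19) differed in opposite directions.

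**Figure D5:**
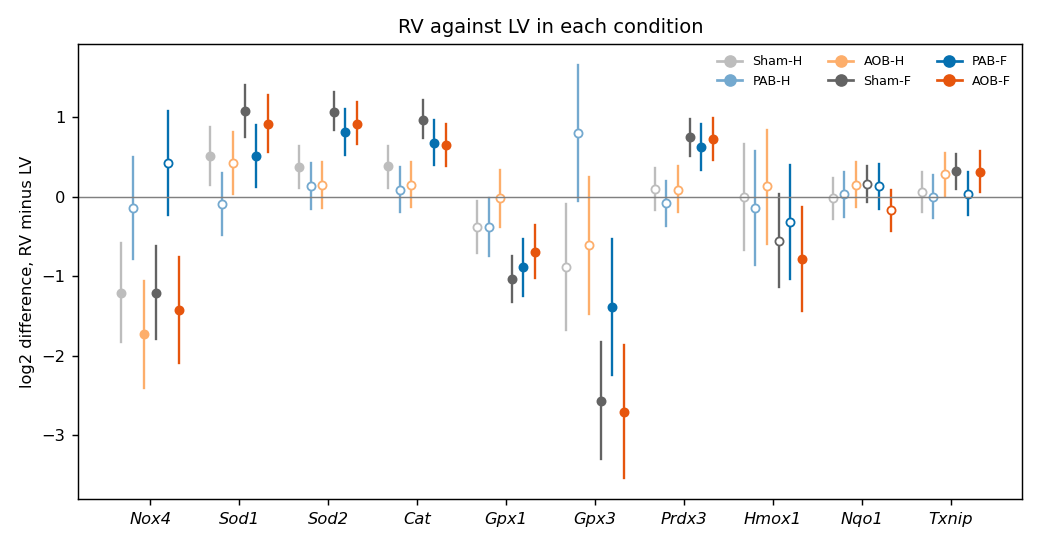
RV minus LV log2 differences of the 10 members in each of the 6 conditions, filled where the adjusted p was below 0.05. Nox4 lies below 0 in Sham and AOB and near 0 or above it in PAB, Gpx3 is lowest in Sham-F and AOB-F, and few members are called at the H stage.

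In banded rats the RV to LV differences of the F stage had the directions seen in Sham for the members called, and Nox4 was not called under PAB. The change of these differences with banding is the RV minus LV test above. In PAB-H no member was called by edgeR beside 0.125% of genes (1 member at an unadjusted p below 0.05), with Nox4 at -0.14 ± 0.33 and Gpx3 at 0.80 ± 0.43. DESeq2 called 0 as well. In PAB-F 6 of 10 were called beside 61.1% of genes (1, Gpx3, beside 17% by the study's criteria): Sod1 (0.51 ± 0.2), Sod2 (0.81 ± 0.15), Cat (0.68 ± 0.14) and Prdx3 (0.62 ± 0.15) were higher and Gpx1 (-0.89 ± 0.18) and Gpx3 (-1.39 ± 0.44) lower in the RV. Gpx3 was not called without PAB-F animal 4 (-0.92, edgeR adjusted p = 0.0878), and Sod1 was not called without PAB-F animal 3 or 6 (0.40 and 0.42, edgeR adjusted p = 0.114 and 0.0914). Nox4 was not called there (0.42 ± 0.33, edgeR adjusted p = 0.273). In AOB-H 1 of 10 was called beside 7.98% of genes (1 beside 3.35% by the study's criteria). This was Nox4, at 35.4, 40.5 and 85.5 in the RV and 100, 146 and 281 in the LV, 3.32-fold lower in the RV without overlap (-1.73 ± 0.34, edgeR adjusted p = 0.000409). In AOB-F 9 of 10 were called, all but Nqo1, beside 67.1% of genes, and 2 (Nox4 and Gpx3) beside 21.9% by the study's criteria. Nox4 was at -1.42 ± 0.34 and Gpx3 at -2.71 ± 0.43. Hmox1 was called in AOB-F (-0.78 ± 0.34, edgeR adjusted p = 0.0346) but not without animal 5, 6 or 7 (edgeR adjusted p of 0.0552 to 0.145). Txnip was called there (0.31 ± 0.13, edgeR adjusted p = 0.0256) but not without animal 3, 4 or 6 (edgeR adjusted p of 0.0668 to 0.104) or with only the groups compared (edgeR adjusted p = 0.142).

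Between the stages, Sham rats differed in the LV and hardly in the RV. In the LV 7 of 10 members were called beside 57.4% of genes, and 1 (Gpx3) beside 8.05% by the study's criteria. Nox4 was lower at the F stage (45.1, 80.3 and 156 in LV Sham-H, 18.6, 48.9 and 109 in LV Sham-F, log2 fold change -0.84 ± 0.29, edgeR adjusted p = 0.0107). Without Sham-H animal 3, which had the highest value, it was not called (-0.67, edgeR adjusted p = 0.0555). Sod1 (-0.57 ± 0.17, edgeR adjusted p = 0.00409), Sod2 (-0.60 ± 0.13, edgeR adjusted p = 6.27e-05), Cat (-0.42 ± 0.13, edgeR adjusted p = 0.00316) and Prdx3 (-0.60 ± 0.13, edgeR adjusted p = 5.68e-05) were lower too. Gpx1 (0.53 ± 0.16, edgeR adjusted p = 0.00371) and Gpx3 (1.68 ± 0.39, edgeR adjusted p = 0.000249) were higher. Gpx3 was 300, 641 and 1760 in LV Sham-H and 826, 2130 and 3810 in LV Sham-F, with overlap. Other genes of the system went both ways in the LV, with 4 of 9 oxidase genes higher and 0 lower (Cyba 1.45 ± 0.31), 9 of 19 glutathione genes higher and 5 lower (Gstp1 1.23 ± 0.18, Glrx3 -0.97 ± 0.16) and both other dismutase genes higher (Sod3 1.57 ± 0.35, Ccs 0.41 ± 0.13).

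In the RV 0 of 10 members were called between the Sham stages by edgeR, beside 0.0502% of genes. Nox4 was 31.2, 41.3 and 49.8 at H and 9.2, 21.7 and 33 at F, with a log2 fold change of -0.84 ± 0.32, an adjusted p of 0.659 and an unadjusted p of 0.0101 (edgeR). Fitted on the 2 groups alone it was called (edgeR adjusted p = 0.0419), beside 141 of 10874 genes. The stage effect differed between the ventricles for 5 of 10 members beside 41.6% of genes (1, Gpx3, beside 9.15% by the study's criteria). The RV minus LV difference was 0.70 for Sod2, 0.60 for Cat, 0.65 for Prdx3, -0.66 for Gpx1 and -1.69 for Gpx3, with adjusted p (edgeR) of 0.00185, 0.00588, 0.00349, 0.0153 and 0.0101. Sod1 was at 0.57 (edgeR adjusted p = 0.0539). With the animal as a block 7 members were called beside 5954 of 11954 genes. Sod1 (0.59, edgeR adjusted p = 0.00707) and Hmox1 (-0.61, edgeR adjusted p = 0.0329) were the members added. Sod1 was also called with a gene length offset (0.79, edgeR adjusted p = 0.00668), with sex as a covariate and with only the groups compared. It was called without each of 12 of the 41 animals in turn, most of them banded rats outside this comparison. Without each of the others it was not called (edgeR adjusted p up to 0.103).

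Sex was tested within each ventricle over all groups (21 males, 20 females). In the RV Gpx3 and Hmox1 were higher in males, 2 of 10 members beside 8.38% of genes, and 0 members beside 0.156% by the study's criteria. Gpx3 averaged 897 ± 754 in males and 368 ± 143 in females (SD), and Hmox1 331 ± 116 and 219 ± 94.2. With group in the model the log2 difference was 0.92 ± 0.19 for Gpx3 (edgeR adjusted p = 0.00146) and 0.64 ± 0.18 for Hmox1 (edgeR adjusted p = 0.0185). In RV Sham-F, where banding plays no part, Gpx3 was 538, 697, 723 and 353 in the 4 males and 294, 251, 261, 210 and 220 in the 5 females, so every male was above every female. Their fibroblast marker sums were 372, 369, 485 and 242 CPM against 214, 232, 221, 158 and 143, also without overlap, and the part of fibroblast RNA was not tested. Hmox1, which degrades heme, was 462, 262, 305 and 431 in these males and 205, 165, 146, 138 and 152 in these females, again without overlap. In RV Sham-H, the other Sham group of the RV, the sexes overlapped. Gpx3 was 363, 584 and 434 in the 3 males and 456, 323, 277 and 328 in the 4 females. Their fibroblast sums were 231, 441 and 377 CPM against 440, 338, 298 and 294. Both the lowest (110) and the highest (440) Hmox1 of RV Sham-H were in males. In Sham rats alone Gpx3 was called and Hmox1 was not (0.79, edgeR adjusted p = 0.0781).

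In the LV edgeR called 0 members beside 9.9% of genes, with 2 at an unadjusted p below 0.05, Nox4 (0.46 ± 0.16, edgeR adjusted p = 0.0576) and Gpx3 (0.66 ± 0.24, edgeR adjusted p = 0.0781). DESeq2 called both. Whether the sex difference itself differed between the ventricles was tested with the animal as a block, a test added after seeing the data. It did for Hmox1 (0.61 ± 0.12, edgeR adjusted p = 0.00762), beside 4.42% of genes, and not for Gpx3 (0.20, edgeR adjusted p = 0.706).

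The genes whose log2 levels ran most closely with each member over the 82 libraries are given as a description. The libraries share groups and depth, and no test was made. For Nox4 they were Pcdh17 (r = 0.847), St8sia4 (0.843), Fap (0.824, also a fibroblast marker of the list used here), Mx1 (0.812) and Ifi44 (0.809), the latter interferon-stimulated genes. Over the 12 group means their r was 0.896, 0.895, 0.931, 0.956 and 0.935. For Gpx3 they were the matrix genes Mxra8 (0.962) and Mmp2 (0.96) and Pi16 (0.96), with 0.987, 0.984 and 0.995 over group means. Sod2 ran with Vdac3 (0.972), Coa5 (0.972) and Ptgr2 (0.97), Prdx3 with Mrpl16 (0.958) and Pmpcb (0.955), and Gpx1 with Atp5g1 (0.959) and Ndufs8 (0.948), most of them genes of mitochondrial proteins. Cat was closest to Klhl41 (0.92), Sod1 to Rab2a (0.916), Txnip to Acss1 (0.755), Nqo1 to Stat3 (0.743) and Hmox1 to Hbegf (0.603). Among the members, Sod2 ran with Cat (0.87) and Prdx3 (0.87), Gpx3 ran against Prdx3 (-0.82), and Nox4 with Gpx3 only weakly (0.36, and 0.57 within groups).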

How the data were processed

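RNA of isolated cardiomyocytes was depleted of ribosomal RNA and sequenced as read pairs. The authors trimmed reads with Trim Galore, aligned them with STAR to Rnor6.0 (UCSC annotation, nf-core pipeline) and counted them per gene with featureCounts, leaving out reads over several genes. The deposited raw counts, in 1 table with a column per library, were the values tested. The authors also deposited a normalized signal, the counts divided by DESeq2 size factors (DESeq2 1.28.1), used here only to recover size factors (0.639 to 1.57), and FPKM, used for levels between genes. Each sample's group came from its labels. Counts were fitted with edgeR 4.0.16 (R 4.3.3, TMM, filterByExpr, prior count 2) in 1 quasi-likelihood model of 12 group means over 82 libraries, with Benjamini-Hochberg adjustment over 11954 genes. Sex was tested per ventricle beside group (11529 genes in the RV and 11765 in the LV). SE is the fold change divided by the root of F. The smallest chi-square per gene between libraries of a group was 4.88, so no library was a copy. The RV and LV of an animal carry the same animal label, and their deviations from group means correlated (median r 0.186 to 0.297 per group, other animals -0.069 to -0.014, although 1 PAB-H pair had -0.141), so the animal was used as a block in alternatives. Alternatives were DESeq2 1.42.0, RLE scaling, no filter, the study's criteria, only the groups compared, sex as a covariate, blocks, each animal left out, Sham only and, added after seeing the data, a gene length offset and the RV PAB libraries without the highest fibroblast sums. The code was tested on simulated data. Members and gene lists were chosen with earlier results of these data known. Genes of other lists were named by rule, at most 3 per list with the largest change among those called in the comparison. Some genes that the rule names are not reported here. Antisense and overlapping genes were not examined.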

Additional observations from a re-analysis of the deposited data

Results flagged for a closer look

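Each member was examined in each of the 12 groups for a highest or lowest library far from the others (Dixon's criterion). Of 120 sets 21 had one, and chance gives about 1 in 20. The animal AOB-H replicate 6 had 9 of them and PAB-H replicate 2 had 5.

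In AOB-H replicate 6 the LV library was low for Sod1 (658 normalized counts, others 1360 to 1740), Sod2 (4500, others 8730 to 10700), Cat (3240, others 4840 to 5190), Gpx1 (3670, others 7180 to 7940) and Prdx3 (2700, others 5830 to 6770), and high for Gpx3 (1340, others 470 to 605). Its RV library was low for Sod2 (6910, others 9870 to 11000) and Prdx3 (4100, others 5970 to 6660) and high for Nox4 (85.6, others 35.4 to 46.6). Both libraries carried more endothelial markers than the rest of their groups, 5010 and 2540 CPM against group medians of 1450 and 811, and what part these had was not tested.

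In PAB-H replicate 2 the RV library was high for Nox4 (245, others 59.3 to 90.7) and low for Sod2 (8230, others 10300 to 11600) and Prdx3 (4600, others 5950 to 6700), and the LV library was low for Sod2 (4840, others 9610 to 11100) and Txnip (13700, others 18000 to 20400). In PAB-F replicate 1 the RV library was low for Sod2 (7170, others 9860 to 11100).

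In AOB-F replicate 3 Sod1 was low in the LV (499, others 915 to 1440) and in the RV (1460, others 1820 to 2120). Single libraries also stood out for Sod1 in LV Sham-F replicate 3 (1330, others 647 to 824), Cat in RV Sham-H replicate 2 (4090, others 5500 to 6270), Cat in LV PAB-F replicate 5 (5510, others 2730 to 3270) and Prdx3 in LV Sham-H replicate 4 (4400, others 5910 to 6980).

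Effects that differed between the ventricles by a test of the difference itself were those of stage in Sham rats (RV minus LV, log2) for Sod2 (0.70), Cat (0.60), Prdx3 (0.65), Gpx1 (-0.66) and Gpx3 (-1.69), and that of sex for Hmox1 (0.61).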

How the results depend on the processing

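Of 1227 recomputed counts of called members, 1191 stayed within 1.5 times the reported count. No called member changed direction under an alternative, and no alternative called a member in the direction opposite to the reported one. The direction of the other values was not compared. Most of these recomputations left out 1 animal, often one outside the groups compared. A count of 0 that stayed 0 was included, so many of the counts could hardly move. Of 48 member calls 33 kept their side of the threshold under every alternative and left-out animal. By the study's criteria the count fell from 2 to 0 in LV AOB-F and for sex in the RV, from 7 to 1 for the LV stage effect, from 5 to 1 for its RV minus LV difference, from 9 to 2, 8 to 5, 6 to 1 and 4 to 1 for RV against LV in AOB-F, Sham-F, PAB-F and Sham-H, and rose from 0 to 1 for the RV minus LV response to PAB at both stages. With only the groups compared it was 0 in LV AOB-F (15 of 11296 genes called) and 4 in RV PAB-F (Sod1 and Txnip added, 2726 of 11067 genes). It was 1 for the RV stage effect (141 of 10874 genes) and 1 for RV against LV in Sham-H (1499 of 10929 genes). DESeq2 called 2 for sex in the LV (1551 of 15143 genes), and Sham libraries alone gave 1 for sex in the RV (475 of 10874 genes). Sex as a covariate gave 1 for the RV minus LV response to PAB-F (63 of 11954 genes). Without the 4 RV PAB libraries of highest fibroblast sum it was 0 at H and 1 at F. The cause of these shifts was not tested beyond the smaller sample where libraries were left out.

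With the animal as a replicate block, 1 member was called for the RV minus LV response to PAB-F (349 of 11954 genes). For RV against LV in AOB-H 2 were called (Sod1 added, 1643 genes). Sod1 and Hmox1 joined the 5 members of the RV minus LV stage effect (7 called, 5954 genes). The replicate numbers of different groups share only a number (median correlation of same-numbered libraries -0.103 to 0.16), and that block changed 1 call, adding Hmox1 to the LV stage effect (0.70, edgeR adjusted p = 0.047).

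Leaving out each animal in turn, the count of called members ranged over 0 to 2 in RV PAB-H (0 without PAB-H 2), 1 to 3 in RV PAB-F (1 without PAB-F 1) and LV AOB-F (1 without AOB-F 6), 1 to 4 for RV against LV in Sham-H, 0 to 1 for the RV minus LV response to PAB-F (1 without AOB-F 7) and 0 to 2 for sex in the LV (above 0 without AOB-H 1 or 6, PAB-F 6, PAB-H 2, Sham-F 4 or Sham-H 1 or 4). Depth limited Nox4 most, at 3 to 277 counts per library.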
